A study of Mus musculus with 32 samples.

Results

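Interferon-stimulated genes are genes whose transcription rises when a cell senses interferon. A list of 39 of them was followed through the kidney cortex of Alport and control mice given nicotinamide riboside (NR) or vehicle. Members were found by their symbols in a table of 32544 genes and kept where the level in CPM (counts scaled by library size) reached at least 0.5 in 4 or more of the 32 mice, a limit that 16309 genes of the table met. All 39 listed genes met it. *Mx2* reached 0.5 CPM in 25 mice, *Zbp1* in 30 and every other member in all 32, so the members nearest to the limit were well inside it and none lay outside. No member had a count of 0 in any mouse. CPM do not correct for gene length, so levels are compared between groups and not between genes.

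Type I interferons, such as interferon alpha and beta, bind a receptor made of IFNAR1 and IFNAR2, whose kinases JAK1 and TYK2 activate the factor ISGF3. ISGF3, with STAT2 and IRF9 among its subunits, binds the interferon-stimulated response element (ISRE), whereas interferon gamma acts at gamma-activated sites (GAS). The products slow viral growth, sense foreign nucleic acid and feed peptides to MHC class I, and in the kidney such genes are also known from sterile injury and inflammation.

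Alport syndrome is a kidney disease caused by defects of collagen IV in the glomerular basement membrane, and NR is a precursor of NAD+. All mice carried the *Col4a3*tm1Dec allele on the C57BL/6J background and were 25 weeks old. Alport mice were *Col4a3*-/- and controls were *Col4a3*+/-, so the controls were heterozygous carriers, not wild-type animals, and the allele was present in every cell of the body. NR was given in the diet and vehicle mice received the same diet without it. There were 8 groups of 4 mice, covering both sexes, genotypes and treatments, with 1 poly(A) RNA library per mouse. The comparisons ask how the members differ between Alport and control mice, whether they differ with NR in either genotype, and whether the sexes differ.

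Libraries held 16621944 to 27778797 counts (median 22071395). *Col4a3* itself was lower but not absent in vehicle-treated Alport mice (54.6 to 83.7 CPM in males and 57.6 to 79.3 in females, against 150 to 200 and 140 to 163 in vehicle-treated controls), and in NR-treated male controls it spanned 59.0 to 160 CPM and overlapped the Alport range. The labelled tissue was checked with marker genes, and the summed level of 11 proximal tubule markers was 3979 to 19346 CPM per mouse and that of 6 podocyte markers 345 to 1006 CPM. NR-treated male Alport replicate 1 stood apart from its group in the members and in macrophage markers, and its values are given wherever a result rests on it. In whole tissue, fewer cells of a type and less RNA per cell cannot be told apart.

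The core of an ISRE, GAAA followed after any 2 bases by a further GAAA, was searched on both strands of RefSeq promoter windows (250 bases before to 50 after an annotated start, GRCm38.p6). Windows existed for 28 of the 39 members, and 14 of the 28 held the motif, against 3.99% of 27025 genes with a window. The GAS-like letters TTCNNNGAA were found in 9 of the 28 and in 9.55% of all genes. A match is a run of letters and not a measured binding site, and no match says only that these letters are not in that window. Stretches of 120 bases from 6 members are shown because 5 of them span the size of the changes and *Gbp3* differs between the sexes. They run 5′ to 3′ on the strand of the gene, with every base of an ISRE-like match in capitals (overlapping copies run together, and a pair of TTTC is the same motif on the opposite strand). *Isg15*, with 3 overlapping copies, encodes a ubiquitin-like protein, *Ifit1* an RNA-binding inhibitor of translation, *Rsad2* the antiviral enzyme viperin, and *Gbp2*, *Gbp3* and *Gbp7* are guanylate-binding GTPases that lie in 1 cluster on chromosome 3. *Gbp3* had 2 windows, and the stretch belongs to the start of the only 1 that held the motif. It ends 29 bases before that start, because the annotated span of the gene begins directly after the stretch.
*Isg15*, GRCm38.p6 chr4:156200819-156200938, minus strand, 120 to 1 bases before the start: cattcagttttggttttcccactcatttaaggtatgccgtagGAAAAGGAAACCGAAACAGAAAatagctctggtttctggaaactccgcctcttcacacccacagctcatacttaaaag
*Ifit1*, GRCm38.p6 chr19:34640769-34640888, plus strand, 120 to 1 bases before the start: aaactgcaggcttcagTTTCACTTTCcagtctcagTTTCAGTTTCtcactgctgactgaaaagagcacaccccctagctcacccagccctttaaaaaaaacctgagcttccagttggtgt
*Rsad2*, GRCm38.p6 chr12:26456483-26456602, minus strand, 150 to 31 bases before the start: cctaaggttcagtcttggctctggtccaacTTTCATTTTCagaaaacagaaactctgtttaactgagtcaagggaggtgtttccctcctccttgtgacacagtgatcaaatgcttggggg
*Gbp2*, GRCm38.p6 chr3:142620543-142620662, plus strand, 120 to 1 bases before the start: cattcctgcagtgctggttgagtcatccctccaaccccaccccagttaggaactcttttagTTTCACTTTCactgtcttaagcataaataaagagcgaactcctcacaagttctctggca
*Gbp3*, GRCm38.p6 chr3:142559896-142560015, plus strand, 148 to 29 bases before the start: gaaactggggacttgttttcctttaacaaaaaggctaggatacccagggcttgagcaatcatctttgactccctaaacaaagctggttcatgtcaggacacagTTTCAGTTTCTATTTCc
*Gbp7*, GRCm38.p6 chr3:142530216-142530335, plus strand, 120 to 1 bases before the start: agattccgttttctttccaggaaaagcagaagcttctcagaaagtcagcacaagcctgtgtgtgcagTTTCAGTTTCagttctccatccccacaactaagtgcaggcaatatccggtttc

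In vehicle-treated mice the members were higher in Alport than in control kidneys in both sexes. In males 37 of 39 rose and 0 fell, while 26.8% of all 15286 genes tested were called higher. In females 37 of 39 rose and 0 fell, against 23.9% of 15709 genes. The median log2 fold change (log2FC) of the members was 1.35 in males (range 0.37 to 2.36) and 1.31 in females (0.13 to 2.27), whereas the median over all genes tested was −0.0013 and −0.00083. Every one of the 4 Alport mice lay above every control mouse for 35 members in males and 37 in females, an arrangement found for 22.3% and 20.7% of all genes. Both sexes shared 35 called members (21% of 15159 genes tested in both were called higher in both), and the change was at least 2-fold for 29 members in males and 28 in females.

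**Figure D1:**
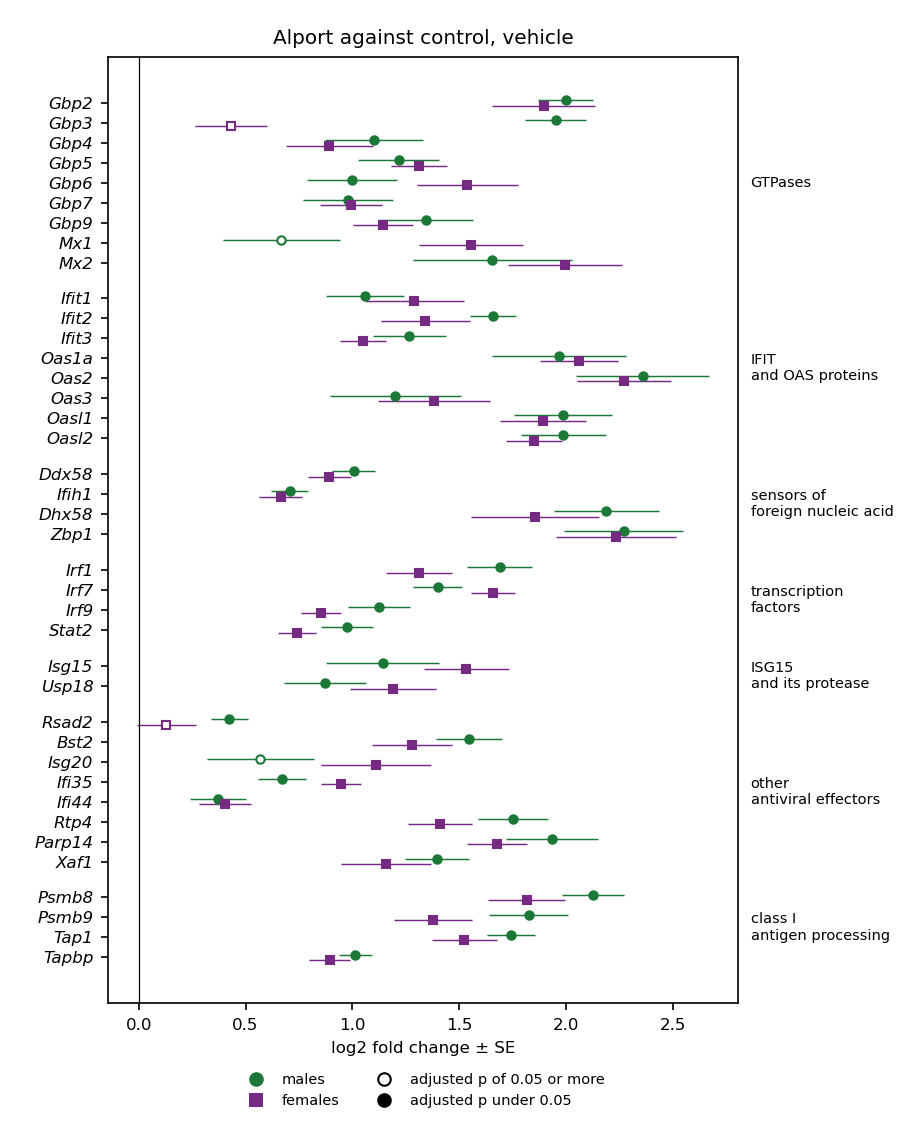
Log2FC of each member in vehicle-treated Alport against control mice, with bars of 1 SE, in males (circles) and females (squares), 4 mice per group, grouped by role; filled symbols have an adjusted p under 0.05. All points lie to the right of 0, and the open symbols are *Mx1* and *Isg20* in males and *Gbp3* and *Rsad2* in females.

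Of the 9 GTPases, 8 rose in each sex (median log2FC 1.22 in males and 1.31 in females). Proteins of these families can coat and disrupt microbes or trap viral particles. *Gbp2* read 6.20, 8.22, 6.05 and 7.52 CPM in the 4 male controls and 26.99, 30.04, 26.9 and 22.1 CPM in the 4 male Alport mice. No Alport male came near a control male (log2FC 1.998 ± 0.13 SE, adjusted p = 1.18e-07). In females *Gbp2* went from 6.15, 9.86, 11.1 and 7.97 CPM to 43.7, 22.04, 34.2 and 27.5 CPM (log2FC 1.90 ± 0.24, adjusted p = 0.000289). *Gbp7*, a relative from the same cluster, changed less. Its levels were 12.2, 16.6, 10.7 and 21.8 CPM in control and 27.4, 33.3, 30.9 and 22.9 CPM in Alport males, where the highest control lay just under the lowest Alport mouse (log2FC 0.98 ± 0.21, adjusted p = 0.00303). Female *Gbp7* levels were 16.7, 17.7, 22.3 and 13.5 and 39.5, 32.2, 35.9 and 28.7 CPM (log2FC 0.99 ± 0.15, adjusted p = 0.000419). The 2 exceptions differ between the sexes. *Mx1*, of the dynamin-like GTPases, had a log2FC of 0.67 ± 0.27 in males with overlapping groups (adjusted p = 0.0587) and of 1.56 ± 0.24 in females (adjusted p = 0.000486). *Gbp3* is described with the sexes. The other members, *Gbp4*, *Gbp5*, *Gbp6*, *Gbp9* and *Mx2*, rose in both sexes with log2FC of 0.89 to 1.99.

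All 8 IFIT and OAS genes rose in both sexes, with medians of 1.81 and 1.62, the highest of the roles in males and in females. IFIT proteins bind foreign RNA, and the OAS enzymes make the messenger that activates RNase L. *Oas2*, with the largest mean log2FC of the 39 members, read 1.32, 1.20, 0.639 and 1.43 CPM in control males and 5.64, 8.55, 4.62 and 3.55 CPM in Alport males (log2FC 2.36 ± 0.31, adjusted p = 4.56e-05). In females it read 1.55, 1.32, 1.85 and 2.64 and 10.4, 7.36, 9.24 and 7.41 CPM (log2FC 2.27 ± 0.22, adjusted p = 3.87e-05). The groups did not overlap in either sex. *Ifit2* was tighter within groups, at 8.74, 8.35, 7.72 and 7.94 CPM in control and 22.8, 24.1, 28.6 and 22.2 CPM in Alport males (log2FC 1.66 ± 0.11, adjusted p = 1.23e-07). Female *Ifit2* read 10.01, 7.72, 15.2 and 9.06 and 30.7, 21.5, 28.9 and 22.8 CPM (log2FC 1.34 ± 0.21, adjusted p = 0.000704). These groups did not overlap either. For *Ifit3* the male values were 8.43, 9.25, 9.93 and 9.94 and 19.5, 16.6, 30.1 and 19.2 CPM (log2FC 1.27 ± 0.17, adjusted p = 5.96e-05), and the female values 14.6, 13.4, 17.5 and 12.9 and 30.1, 28.6, 32.8 and 26.5 CPM (log2FC 1.05 ± 0.11, adjusted p = 5.46e-05). *Oasl2*, an OAS-like protein, read 5.83, 5.44, 3.54 and 6.14 and 17.7, 24.6, 22.01 and 14.3 CPM in males and 7.48, 7.45, 9.58 and 7.70 and 32.5, 24.8, 32.05 and 23.98 CPM in females. Its log2FC were 1.99 ± 0.20 and 1.85 ± 0.13. *Ifit1*, *Oas1a*, *Oas3* and *Oasl1* lay between 1.06 and 2.06.

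The 4 sensors of foreign nucleic acid rose in both sexes (medians 1.60 and 1.37). *Zbp1*, which binds Z-form nucleic acid and can start necroptosis, was at 0.848, 0.642, 1.33 and 1.43 CPM in control males and 4.59, 6.15, 5.04 and 3.59 CPM in Alport males (log2FC 2.27 ± 0.28, adjusted p = 2.24e-05). Female values were 0.559, 1.58, 1.45 and 1.78 and 6.41, 4.87, 7.28 and 6.15 CPM (log2FC 2.23 ± 0.28, adjusted p = 0.000146). *Ddx58*, which encodes the RNA sensor RIG-I, changed less. In males it read 19.8, 23.6, 20.8 and 22.4 and 38.1, 44.6, 46.3 and 35.5 CPM (log2FC 1.01 ± 0.10), and in females 32.5, 26.7, 31.8 and 25.8 and 60.7, 46.2, 54.1 and 50.3 CPM (log2FC 0.89 ± 0.10). *Ifih1* (MDA5), the sensor of long double-stranded RNA, moved least of the 4. Male values were 14.2, 13.9, 14.7 and 15.6 and 22.4, 22.1, 24.1 and 21.6 CPM and female values 18.6, 17.6, 15.4 and 14.5 and 25.9, 22.6, 29.03 and 24.3 CPM (log2FC 0.71 ± 0.09 and 0.66 ± 0.10). *Dhx58* (LGP2), a partner of both RNA sensors, had log2FC of 2.19 ± 0.25 and 1.85 ± 0.30.

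All 4 transcription factors rose in both sexes (medians 1.26 and 1.08). *Irf7*, the factor that amplifies type I interferon transcription, read 9.70, 7.41, 8.16 and 8.37 CPM in control and 19.8, 20.8, 23.8 and 19.4 CPM in Alport males (log2FC 1.40 ± 0.12, adjusted p = 8.04e-07). In females it read 7.86, 9.11, 8.87 and 9.61 and 31.1, 24.5, 28.4 and 25.03 CPM, with a wide gap between the groups (log2FC 1.66 ± 0.10, adjusted p = 5.12e-06). *Irf1*, which answers mainly to interferon gamma and cytokines, was at 12.3, 12.7, 9.59 and 13.7 and 38.6, 41.8, 40.6 and 26.6 CPM in males and at 11.6, 13.7, 16.8 and 16.6 and 36.8, 26.9, 42.7 and 35.8 CPM in females (log2FC 1.69 ± 0.15 and 1.31 ± 0.16). The ISGF3 subunits *Stat2* and *Irf9* changed less. *Stat2* read 14.2, 18.1, 12.4 and 17.9 and 28.2, 31.5, 30.4 and 26.4 CPM in males and 19.2, 20.2, 20.7 and 24.7 and 37.2, 31.8, 36.1 and 32.96 CPM in females (log2FC 0.98 ± 0.12 and 0.74 ± 0.09). *Irf9* read 14.6, 15.9, 9.83 and 14.8 and 28.6, 32.3, 29.3 and 23.4 CPM in males and 19.8, 18.2, 21.9 and 18.7 and 35.3, 29.4, 37.4 and 36.3 CPM in females (log2FC 1.12 ± 0.14 and 0.85 ± 0.09).

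*Isg15* and *Usp18*, the protease that removes ISG15 from proteins and dampens IFNAR signaling, both rose in both sexes. *Isg15* was measured at 1.59, 0.985, 2.46 and 1.998 and 4.34, 3.22, 3.74 and 3.33 CPM in males and 1.81, 1.51, 2.24 and 1.96 and 6.15, 4.60, 6.22 and 4.19 CPM in females (log2FC 1.14 ± 0.26 and 1.53 ± 0.20). *Usp18* read 3.34, 2.10, 2.66 and 3.42 and 4.79, 4.84, 4.74 and 5.56 CPM in males and 2.71, 2.03, 3.38 and 2.82 and 7.69, 4.76, 5.98 and 5.89 CPM in females (log2FC 0.87 ± 0.19 and 1.19 ± 0.20).

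Among the 8 other antiviral effectors 7 rose in each sex (medians 1.03 and 1.13), and these include the smallest changes of the list. *Parp14*, an ADP-ribosyltransferase, rose from 12.2, 11.1, 7.43 and 14.3 to 40.2, 48.8, 45.5 and 28.4 CPM in males and from 16.4, 14.2, 21.4 and 15.4 to 61.02, 44.3, 57.02 and 47.9 CPM in females (log2FC 1.94 ± 0.21 and 1.68 ± 0.14). *Rtp4* rose from 2.23, 2.83, 1.97 and 2.47 to 7.26, 7.69, 8.40 and 7.01 CPM in males and from 4.64, 3.12, 3.73 and 4.51 to 10.6, 10.1, 11.5 and 9.03 CPM in females (log2FC 1.75 ± 0.17 and 1.41 ± 0.15). *Rsad2*, whose promoter stretch is among those shown, changed little. It read 21.9, 25.1, 24.98 and 25.2 CPM in control and 30.2, 32.1, 33.7 and 27.3 CPM in Alport males, a small step without overlap (log2FC 0.42 ± 0.09, adjusted p = 0.00133). In females it read 23.04, 21.5, 33.7 and 30.7 and 31.9, 27.7, 28.8 and 27.7 CPM, and the groups overlapped (log2FC 0.13 ± 0.14, adjusted p = 0.482). *Isg20*, an RNA exonuclease, passed the test among females, with a log2FC of 1.11 ± 0.26 (adjusted p = 0.00449), while the male estimate was 0.57 ± 0.25 (adjusted p = 0.0750). *Bst2* (tetherin), *Ifi35*, *Ifi44* and *Xaf1* rose in both sexes, with log2FC from 0.37 for *Ifi44* in males to 1.55 for *Bst2* in males. Male *Ifi44* was not called with the replicate block, in 1 fit of all 32 mice, or without any 1 of 5 mice (vehicle-treated control replicates 2 and 3 and Alport replicates 2, 3 and 4). Female *Ifi44* was not called in the fit of all 32 mice, or without control replicate 1, control replicate 2 or Alport replicate 1.

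The 4 genes of class I antigen processing all rose (medians 1.78 and 1.45). *Psmb8*, a catalytic subunit of the immunoproteasome, read 7.42, 6.42, 7.08 and 4.76 CPM in control and 29.95, 26.7, 27.6 and 21.7 CPM in Alport males (log2FC 2.13 ± 0.15, adjusted p = 1.69e-07). Female values were 6.88, 9.52, 11.1 and 8.15 and 34.9, 21.7, 34.3 and 31.7 CPM (log2FC 1.82 ± 0.18, adjusted p = 5.94e-05). *Tap1*, a subunit of the peptide transporter, shifted in the same direction. It read 9.96, 12.6, 9.64 and 10.5 and 35.6, 37.2, 33.7 and 28.6 CPM in males and 11.3, 15.02, 16.4 and 14.6 and 48.1, 30.01, 42.9 and 39.98 CPM in females (log2FC 1.74 ± 0.11 and 1.52 ± 0.15). *Tapbp* (tapasin), which bridges the transporter and class I, had CPM of 61.6, 59.2, 59.2 and 53.6 and 106, 120, 116 and 103 in males and 69.3, 65.98, 75.6 and 67.7 and 146, 104, 128 and 126 in females (log2FC 1.01 ± 0.08 and 0.89 ± 0.10). *Psmb9* had log2FC of 1.82 ± 0.19 and 1.38 ± 0.18.

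Genes around the members were counted from lists of the pathway. None of 12 interferon ligand genes had enough counts to be tested in any comparison, and 6 of the 12 had no count in any mouse. *Ifnb1* had 1 count in 1 of 32 mice. *Ifng* had counts of 7, 3, 2 and 0 in vehicle-treated Alport males and 6, 0, 4 and 8 in Alport females, against 0 in all 4 control males and 2, 0, 0 and 2 in control females. At this depth a change of the ligands was not detectable. Of all genes tested, 26.8% were called higher in Alport males and 23.9% in Alport females. Called lower were 3674 of 15286 in males and 3419 of 15709 in females. Of 12 genes of the receptors and their signaling, 11 rose in Alport males and 10 in Alport females. *Ifnar1* had log2FC of 0.54 ± 0.08 and 0.41 ± 0.07, and the interferon gamma receptor gene *Ifngr1* of 1.04 ± 0.07 and 1.28 ± 0.10. Of 18 genes of nucleic acid sensing upstream of interferon, 14 rose and 1 fell in males, and 14 rose and 2 fell in females. *Mb21d1* (cGAS), the sensor of cytosolic DNA, read 0.689, 0.343, 0.0492 and 0.523 CPM in control and 2.56, 3.30, 2.33 and 1.88 CPM in Alport males (log2FC 2.73 ± 0.44) and had a log2FC of 1.19 ± 0.26 in females. *Tmem173* (STING), its partner, read 2.07, 1.76, 1.57 and 2.14 and 15.8, 21.6, 16.7 and 12.3 CPM in males and 2.02, 2.11, 5.26 and 3.46 and 19.6, 11.9, 17.7 and 15.5 CPM in females (log2FC 3.22 ± 0.19 and 2.36 ± 0.30). Of 11 further genes of MHC class I presentation, 10 rose in males and 11 in females. *B2m*, the light chain, had log2FC of 1.34 ± 0.09 and 1.19 ± 0.15, and *Nlrc5*, the transactivator of class I genes, of 2.14 ± 0.18 and 2.05 ± 0.24. Among 3 chemokine genes 2 rose in each sex.

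Cell type markers moved with the genotype too. Their counts stand beside 26.8% and 23.9% of all genes called higher in males and females. Lower were 3674 of 15286 and 3419 of 15709 genes. Of 12 macrophage markers 11 rose in each sex (median log2FC 3.46 in males and 2.72 in females), and their summed level was 163 to 190 CPM in control and 665 to 870 CPM in Alport males, and 187 to 264 and 545 to 915 CPM in females. T and NK cell markers had medians of 2.17 and 1.81 (9 of 9 and 10 of 10 tested rose), at summed levels of 4.77 to 8.75 and 18.4 to 35.1 CPM in males and 8.43 to 14.2 and 21.1 to 37.4 CPM in females. Dendritic cell markers had medians of 1.78 and 1.24 and B and plasma cell markers of 1.80 and 1.29. Proximal tubule markers fell, with 11 of 11 lower in males and 10 lower and 1 higher of 11 in females (medians −1.08 and −0.90). Podocyte markers had medians of 1.20 and 0.44, endothelial markers of 0.65 and 0.30, and markers of the collecting duct and loop of Henle of −0.43 and −0.52. The 1 neutrophil marker tested of 6 rose in both sexes. No marker had 0 counts in all mice of a group, except *Ly6g* of neutrophils in 5 of the 8 groups. Their part in the changes of the members was not tested.

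**Figure D2:**
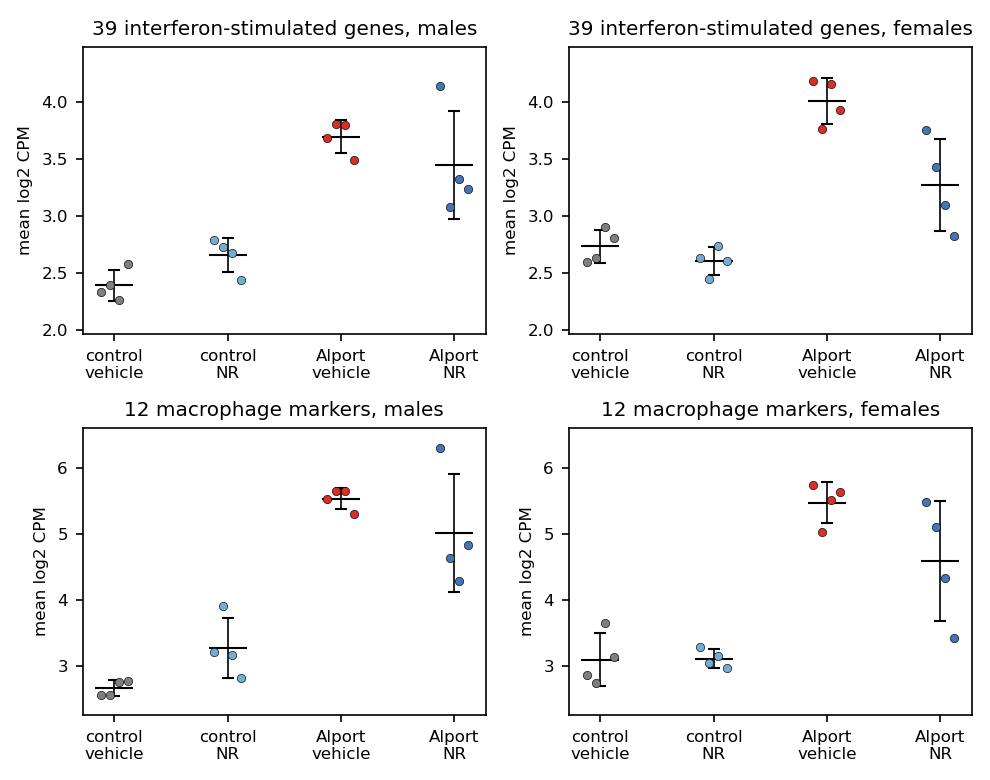
Mean log2 CPM of the 39 members (top) and of 12 macrophage markers (bottom) in each mouse, by genotype and treatment, in males (left) and females (right); points are mice, the wide bar is the mean of 4 and the error bar the SD. Member means were 2.26 to 2.58 in vehicle-treated control males and 3.49 to 3.80 in vehicle-treated Alport males, and the single high point in NR-treated Alport males is 4.14.

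The NR comparisons in Alport mice share their vehicle-treated Alport mice with the genotype comparisons, so the values of each are given on their own. With NR in Alport females, all 39 members had lower estimated levels than with vehicle, but none passed the test over all genes. The median log2FC was −0.68 (range −1.37 to −0.01), against 0.00049 over all 15712 genes. No member was called lower, where 0.0764% of genes were. The lowest adjusted p was 0.0548 for *Gbp3*, and 29 of 39 members had an unadjusted p under 0.05, as did 16.5% of all genes tested. All 4 NR-treated females lay below all 4 vehicle-treated females for 20 members, which held for 3.95% of all genes. The mean log2 CPM of the members was 3.76 to 4.18 in the 4 vehicle-treated and 2.82 to 3.75 in the 4 NR-treated Alport females, and 2.59 to 2.90 in vehicle-treated female controls. The number called depended on the test and on the mice. DESeq2 called 18 members lower (1.74% of all genes) and limma-voom 3 (0.07%), leaving out NR-treated female Alport replicate 1 gave 14 (0.45%), and the settings of edgeR gave 0 to 7 (0.449% at 7).

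*Oas2* had the largest estimate, at 10.4, 7.36, 9.24 and 7.41 CPM with vehicle and 4.30, 4.44, 2.64 and 1.93 CPM with NR (log2FC −1.37 ± 0.26, adjusted p = 0.0620). *Gbp3* read 31.7, 28.8, 29.03 and 23.98 CPM with vehicle and 15.8, 12.8, 9.98 and 6.17 CPM with NR (log2FC −1.34 ± 0.24, adjusted p = 0.0548). Its highest NR-treated mouse lay well below the lowest vehicle-treated one, and without the robust option of the fit, an alternative chosen after the data were seen, its adjusted p was 0.0441. *Irf7* read 31.1, 24.5, 28.4 and 25.03 CPM with vehicle and 17.9, 13.2, 10.5 and 8.11 CPM with NR, again without overlap (log2FC −1.13 ± 0.21, adjusted p = 0.0561). *Zbp1* values were 6.41, 4.87, 7.28 and 6.15 and 4.84, 2.74, 1.60 and 1.71 CPM, where the highest NR-treated mouse lay just below the lowest vehicle-treated one (log2FC −1.18 ± 0.33, adjusted p = 0.148). For *Ifit3* they were 30.1, 28.6, 32.8 and 26.5 and 23.3, 18.6, 15.5 and 10.001 CPM (log2FC −0.80 ± 0.21, adjusted p = 0.133), and for *Ifih1* 25.9, 22.6, 29.03 and 24.3 and 21.5, 15.8, 13.7 and 13.9 CPM (log2FC −0.64 ± 0.14, adjusted p = 0.102).

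The separation of the groups is given by member. In *Ddx58* the values were 60.7, 46.2, 54.1 and 50.3 CPM with vehicle and 42.1, 41.3, 32.998 and 35.7 CPM with NR (log2FC −0.47 ± 0.10), and in *Oasl2* 32.5, 24.8, 32.05 and 23.98 and 20.4, 17.5, 13.8 and 11.2 CPM (log2FC −0.84 ± 0.18), both without overlap. *Parp14* (61.02, 44.3, 57.02 and 47.9 and 43.4, 32.9, 29.4 and 21.9 CPM, log2FC −0.71 ± 0.18) also separated. Overlap was seen for *Psmb8* (34.9, 21.7, 34.3 and 31.7 and 34.7, 20.3, 14.4 and 11.3 CPM) and *Tap1* (48.1, 30.01, 42.9 and 39.98 and 39.8, 22.9, 18.6 and 18.6 CPM), where NR-treated replicate 1 alone reached the vehicle range. *Gbp2* showed the same arrangement, with 43.7, 22.04, 34.2 and 27.5 CPM on vehicle and 33.02, 18.8, 9.98 and 9.37 CPM on NR. Neither *Irf1* (36.8, 26.9, 42.7 and 35.8 and 47.9, 38.6, 28.7 and 25.4 CPM, log2FC −0.01 ± 0.20) nor *Rsad2* (31.9, 27.7, 28.8 and 27.7 and 30.5, 32.1, 34.5 and 16.2 CPM, log2FC −0.03 ± 0.20) showed a difference beyond the spread between mice. By role the median log2FC was −0.83 for GTPases, −0.88 for IFIT and OAS genes, −0.72 for sensors, −0.34 for transcription factors, −0.65 for *Isg15* and *Usp18*, −0.61 for other effectors and −0.53 for class I antigen processing.

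**Figure D3:**
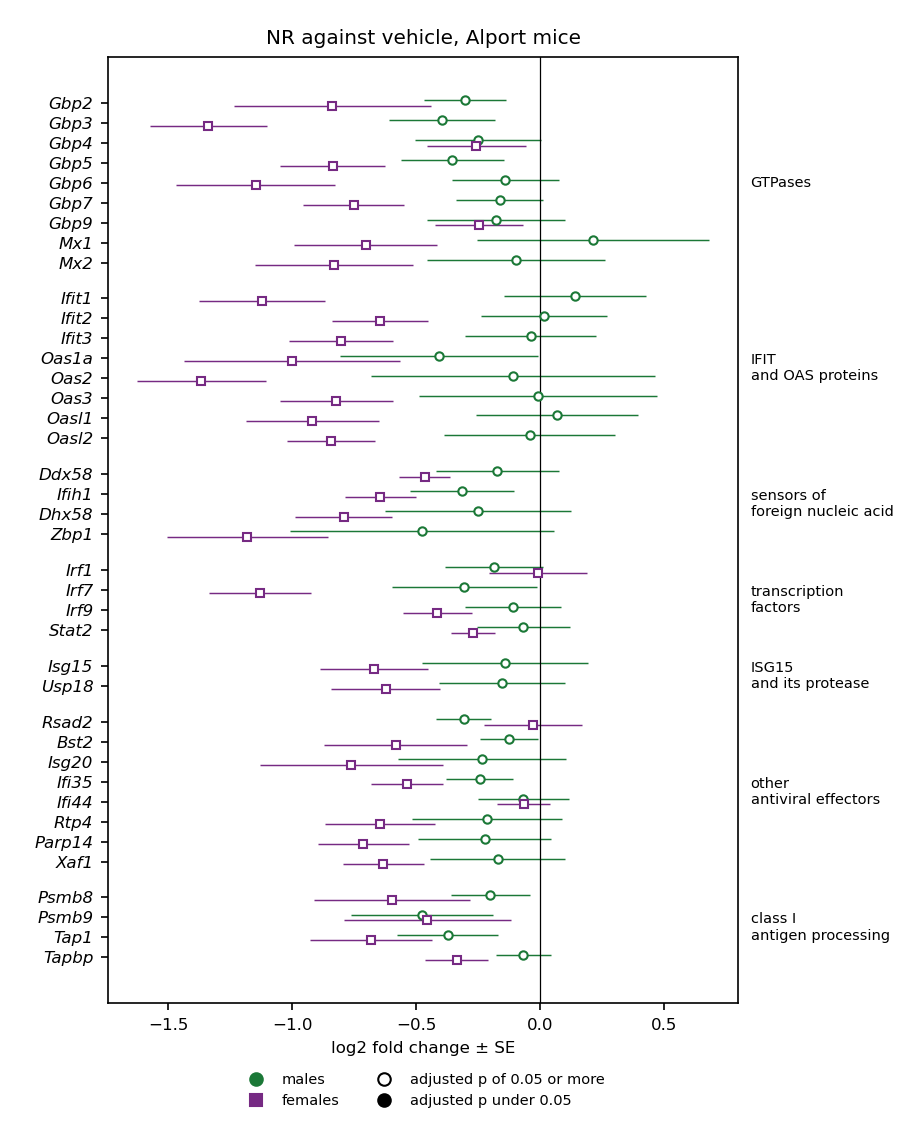
Log2FC of each member with NR against vehicle in Alport mice, with bars of 1 SE, in males (circles) and females (squares), 4 mice per group, grouped by role. All symbols are open because no member had an adjusted p under 0.05, and the 39 female points lie to the left of 0, with *Irf1* and *Rsad2* next to it.

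In Alport males the estimates with NR were smaller. None of 39 members was called, as was none (0%) of the 15500 genes tested, 1 member had an unadjusted p under 0.05 (5.01% of all genes did), and for no member were the groups separate. The median log2FC was −0.17 (range −0.48 to 0.21), with 35 of 39 below 0. Replicate 1 of the NR-treated males lay apart from the other 3. *Irf7* read 29.96, 9.90, 14.001 and 14.5 CPM in the 4 NR-treated and 19.8, 20.8, 23.8 and 19.4 CPM in the 4 vehicle-treated males, so replicate 1 exceeded every vehicle-treated mouse and the other 3 lay below all of them. *Zbp1* showed the same arrangement, at 8.53, 1.74, 1.44 and 2.31 and 4.59, 6.15, 5.04 and 3.59 CPM. So did *Ifih1*, at 27.997, 14.2, 14.3 and 16.7 and 22.4, 22.1, 24.1 and 21.6 CPM. *Gbp3* read 19.9, 10.9, 11.9 and 10.5 and 16.4, 20.5, 14.7 and 17.99 CPM. Without replicate 1 the median was −0.45 and 2 members, *Ifih1* and *Zbp1*, were called lower, as were 1.84% of all genes.

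With both sexes in 1 fit of the 16 Alport mice and sex as a term, 1 member of 39 fell with NR, where 0.383% of 16189 genes were called lower. It was *Gbp3* (log2FC −0.86 ± 0.21, adjusted p = 0.0483), which was called in 9 of 24 alternatives with adjusted p of 0.00139 to 0.111. The median of the members was −0.41 (range −0.86 to −0.06), all 39 estimates were below 0, and 18 had an unadjusted p under 0.05, as did 19% of all genes. Without NR-treated male replicate 1, 22 members and 7.46% of all genes were called lower. The median log2FC of the macrophage markers with NR was −0.76 in Alport females, −0.25 in Alport males and −0.51 in both sexes, with 0 of 12 called in each, and their summed level with NR was 223 to 764 CPM in females and 312 to 1248 CPM in males. T and NK cell markers had medians of −0.71 in females and −0.72 in males, with 0 called. In Alport females the summed level of B and plasma cell markers was 21.6 to 74.4 CPM with vehicle and 6.99 to 13.7 with NR. These sums did not overlap, but the mean log2 CPM did (−0.03 to 1.77 and −0.52 to 0.31). In Alport males the sums overlapped (19.8 to 95.05 and 3.59 to 36.2 CPM). Summed levels of dendritic cell markers overlapped between treatments in Alport mice of both sexes. The part of any of these markers in the differences with NR was not tested. None of the 44 tested genes of the pathway lists was called with NR in Alport mice of either sex.

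In control mice no member passed the threshold with NR. In males 0 of 39 were called, where 2.97% of 14696 genes were called higher, the median was 0.28 with 32 of 39 above 0, and 12 had an unadjusted p under 0.05, which held for 23% of all genes. The groups were separate, with NR higher, for 6 members (7.37% of all genes). *Ifit2* was at 8.74, 8.35, 7.72 and 7.94 CPM with vehicle and 16.3, 12.7, 12.5 and 9.08 CPM with NR, which is 1 of the 6 (log2FC 0.64 ± 0.17, adjusted p = 0.0629). *Oasl2* was another, at 5.83, 5.44, 3.54 and 6.14 and 8.88, 7.94, 10.8 and 6.47 CPM, as was *Rsad2*, at 21.9, 25.1, 24.98 and 25.2 and 29.5, 27.9, 34.5 and 30.5 CPM. Without NR-treated male control replicate 4, the lowest of its group for several of them, 9 members were called higher (7.55% of all genes), and DESeq2 called 8 (6.61%). Of 10 endothelial markers 9 rose in the same mice, as did 3 of 12 macrophage markers (median 0.81), and their part was not tested. In females the median was −0.11, 0 of 39 were called (6.39% of 14951 genes were), 31 estimates lay below 0 and 6 had an unadjusted p under 0.05 (22.3% of all genes did). With both sexes 0 of 39 were called, 4 had an unadjusted p under 0.05 (28% of all genes did) and the median was 0.01, with −0.01 to 0.11 when 1 mouse was left out, while 10.7% of 15379 genes were called. Genes of the pathway lists that passed in controls were *Socs3* (log2FC 1.88 ± 0.45) and *Tmem173* (1.09 ± 0.26), higher in males, and in females *Irf5* (−0.52 ± 0.13), lower, and the proteasome activator genes *Psme1* (0.23 ± 0.06) and *Psme2* (0.28 ± 0.08), higher. With both sexes *Calr* (−0.30 ± 0.06) and *Cxcl11* (−1.18 ± 0.37) were lower, and *H2-K1* (0.19 ± 0.06), *Ifnar2* (0.30 ± 0.08), *Myd88* (0.22 ± 0.07), *Psme1* (0.31 ± 0.07) and *Psme2* (0.28 ± 0.08) were higher.

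Whether NR acted differently in the 2 genotypes was tested as an interaction. No member was called in males or in females, and neither was any other gene (0% of 15800 and 0% of 16064). The median interaction (Alport minus control) was −0.47 in males and −0.57 in females, and 11 and 13 members had an unadjusted p under 0.05, against 8.83% and 9.24% of all genes. With 1 mouse left out the male median ran from −0.78 (without NR-treated Alport replicate 1) to −0.36 and the female median from −0.79 (without NR-treated Alport replicate 1) to −0.39. In males the smallest p was that of *Rsad2* (interaction −0.67 ± 0.14, adjusted p = 0.395). In females it was that of *Ifih1* (−0.66 ± 0.18, adjusted p = 0.395). Without NR-treated male Alport replicate 1, 12 members and 4.56% of all genes were called lower in males, and without NR-treated female Alport replicate 1, 2 members and 0.0984% of all genes were called lower in females.

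The sexes differed most in *Gbp3*. Vehicle-treated control males read 4.56, 5.74, 4.18 and 4.47 CPM and control females 30.8, 17.99, 19.7 and 17.99 CPM, without overlap (female minus male log2FC 2.21 ± 0.19, adjusted p = 5.01e-06). In Alport mice the values were 16.4, 20.5, 14.7 and 17.99 CPM in males and 31.7, 28.8, 29.03 and 23.98 CPM in females. The genotype effect was therefore large in males (log2FC 1.95 ± 0.14, adjusted p = 2.78e-07) and small in females (log2FC 0.43 ± 0.17, adjusted p = 0.0590), where control replicate 1 lay within the Alport range. The female effect was called in 5 of 16 alternatives, with the replicate block, DESeq2 and limma-voom and without control replicate 1 or Alport replicate 4, and adjusted p over the 16 ran from 0.00118 to 0.173. It was the only one of 39 members with a sex-genotype interaction past an adjusted p of 0.05 and a 2-fold limit (female minus male −1.55 ± 0.23, adjusted p = 0.00543), a call made for 0.142% of 16152 genes in this direction. The interaction was called in 24 of 25 alternatives and not in 1 fit of all 32 mice (adjusted p = 0.196). For the sex-genotype interaction, 2 of 39 members had an unadjusted p under 0.05, as did 11.8% of all genes. NR-treated female controls read 15.8, 15.1, 13.9 and 14.9 CPM, below all 4 vehicle-treated female controls, and NR-treated male controls 8.31, 6.75, 4.04 and 6.70 CPM. *Gbp3* was not called with NR in either. In female controls 1 of 16 alternatives called it, DESeq2, and adjusted p ran from 0.0155 to 0.403. In the same females, 945 of 14951 genes were separate with NR lower. Reads of *Gbp* genes may be shared with near copies, and how the counting treated them is not given in the sources used here, so levels of this family, of *Ifit1* and *Ifit3*, of the OAS genes and of the *Mx* genes are uncertain.

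**Figure D4:**
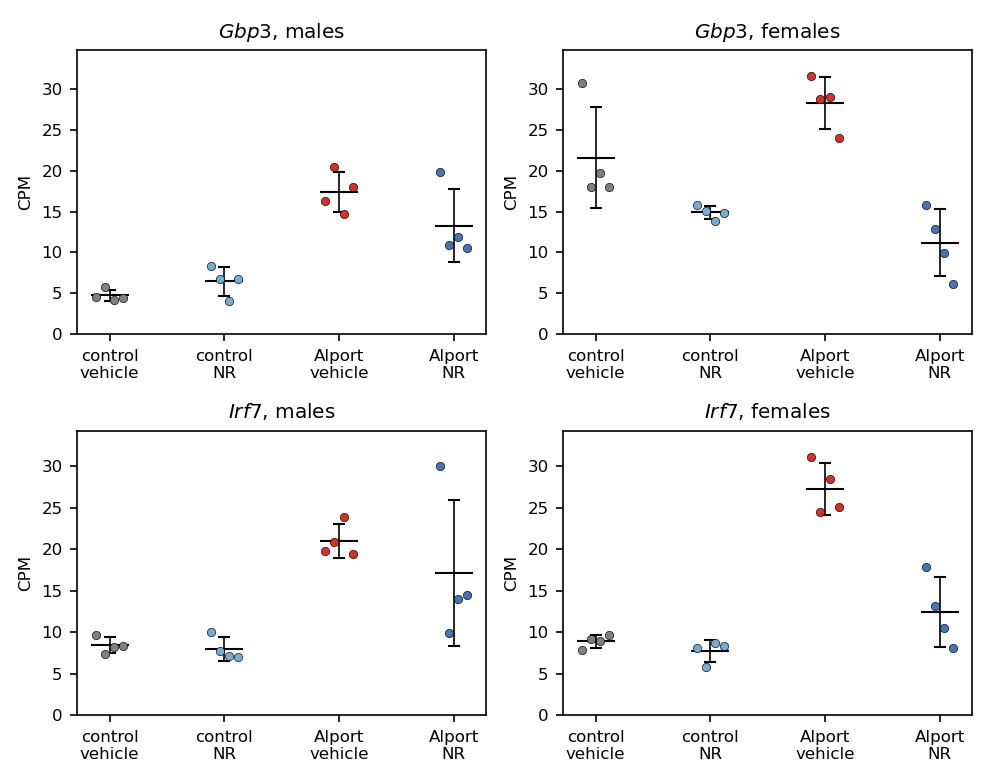
CPM of *Gbp3* (top) and *Irf7* (bottom) in each mouse of the 8 groups, males left and females right; points are mice, the wide bar is the mean of 4 and the error bar the SD. *Gbp3* sits at 4.18 to 5.74 CPM in vehicle-treated control males and 17.99 to 30.8 CPM in control females, while *Irf7* overlaps between controls of the sexes and is lower with NR in Alport females.

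Vehicle-treated control females had higher levels than control males in 11 of 39 members and lower levels in none, where 15.7% of 14990 genes were called higher in females. The median over the members was 0.37, and the groups were separate with females higher for 8 members (14.4% of all genes). In either direction 15 of 39 members had an unadjusted p under 0.05 (38.5%), against 42.5% of all genes. Besides *Gbp3*, the called members were *Ifit3* (log2FC 0.66 ± 0.12), *Ddx58* (0.45 ± 0.10), *Tapbp* (0.28 ± 0.07), *Irf9* (0.53 ± 0.13), *Rtp4* (0.77 ± 0.20), *Oasl2* (0.64 ± 0.17), *Stat2* (0.46 ± 0.13), *Tap1* (0.45 ± 0.13), *Parp14* (0.60 ± 0.19) and *Psmb8* (0.50 ± 0.18). In the order of levels of *Ifit3*, vehicle-treated control males (8.43, 9.25, 9.93 and 9.94 CPM) lay below control females (14.6, 13.4, 17.5 and 12.9 CPM), and Alport males (19.5, 16.6, 30.1 and 19.2 CPM) overlapped both control females and Alport females (30.1, 28.6, 32.8 and 26.5 CPM). Macrophage markers were higher in the same females in 4 of 12 (median 0.54) and endothelial markers in 6 of 10, and their part in the difference was not tested. Fitting all 32 mice together left 3 members called higher in females.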

How the data were processed

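Kidney cortex RNA of 32 mice was measured by bulk RNA-Seq with poly(A) selection. The authors processed the reads with BioJupies and deposited a table of raw counts per gene symbol and mouse, which was used here. The submitters' processing notes name the build mm10, and the aligner version, annotation and strand setting are not given in the sources used here. A second deposited table, a log transform of the same counts, was not used.

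The quasi-likelihood F test of edgeR 4.0.16 (R 4.3.3) was applied with its robust option, TMM scaling and the filterByExpr filter (minimum count of 10), in 1 fit per comparison with only its mice. Benjamini-Hochberg adjustment ran over all genes tested, and calls needed an adjusted p under 0.05. Calls of an interaction of sex and genotype additionally required 2-fold. The robust option was adopted after a first fit without it had been seen, and the fit without it is an added alternative. The SE is the absolute log2FC divided by the square root of F. CPM are TMM-scaled over all 32 mice, and log2 CPM used a prior count of 2. Alternatives were DESeq2 1.42.0, limma-voom (limma 3.58.1), other size factors and filters, a fit of all 32 mice, a replicate block and leaving out each mouse.

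The members, the lists around them and the comparisons were chosen with earlier results of these data known. Values per mouse are given for the 2 members of each role with the highest mean CPM, the member with the largest absolute log2FC in Alport mice averaged over the sexes, and members called with NR, in an interaction or between the sexes (at most 12, smallest adjusted p first). Pathway genes are named where called with NR or in an interaction, along with some chosen for their place in the pathway. One item is not reported here. Libraries held 16621944 to 27778797 counts, which sets the precision of low counts. In all 48 pairs of mice within groups the counts differed beyond sampling noise (lowest chi-square per degree of freedom 7.96). In NR-treated Alport males it was 158, 117 and 162 for replicate 1 against replicates 2, 3 and 4. It was 141 and 172 for replicate 3 against replicates 2 and 4, and 24.4 between replicates 2 and 4. Over the whole library, replicate 1 was therefore not the only distant mouse of that group. Other groups held distant mice too. In NR-treated Alport females the value was 87.3, 90.8 and 48.8 for replicate 4 against replicates 1, 2 and 3, and 14.8 to 35.9 among those. In NR-treated control males it was 77.8, 33.6 and 64.1 for replicate 4 against replicates 1, 2 and 3. Replicate 2 of those males stood at 57.9 and 53.7 against replicates 1 and 3. In simulated data for NR in Alport females (15491 genes), the test found 62 of 99 genes changed by 1 and 92 of 97 changed by 2 on the log2 scale. It also made 9 false calls. Genes were simulated independently of each other and smaller changes were not simulated, so recovery of members that vary together within a mouse was not measured.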

Additional observations from a re-analysis of the deposited data

Results flagged for a closer look

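In a group of 4 mice, a mouse was singled out when its gap to the nearest other mouse took up more of the group's range than Dixon's critical value allows. Of 184 groups checked, 16 held such a mouse, where independent normal values would give about 1 in 20. The checks cover 22 genes and the mean of the members in the same 8 groups of mice. They are therefore not independent, and the 16 cannot be weighed against that rate. NR-treated male Alport replicate 1 was the high mouse in 7 of the 16, at 13.1 CPM for *Oas2*, 60.6 for *Ddx58*, 8.53 for *Zbp1*, 45.5 for *Irf1*, 19.9 for *Gbp3*, 11.7 for *Rtp4* and 36.4 for *Oasl2*. Its mean log2 CPM of 12 macrophage markers was 6.30, where the other 3 mice had 4.28 to 4.83, and the part of these markers was not tested.

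The others were single mice. *Gbp7* was low in NR-treated male control replicate 1 (13.0 CPM) and *Stat2* in NR-treated female Alport replicate 4 (24.6). *Usp18* was high in vehicle-treated male Alport replicate 4 (5.56), *Isg15* in NR-treated female control replicate 3 (3.91), *Gbp3* in vehicle-treated female control replicate 1 (30.8) and *Oasl2* in vehicle-treated female control replicate 3 (9.58). *Rsad2* was low in vehicle-treated male control replicate 1 (21.9) and in NR-treated female control replicate 2 (19.6), and *Irf9* in NR-treated female control replicate 1 (15.8).

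The genotype effect on *Gbp3* differed between the sexes by −1.55 on the log2 scale (female minus male, tested as an interaction with edgeR, adjusted p = 0.00543). Without vehicle-treated female control replicate 1 the interaction was −1.34.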

How the results depend on the processing

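The counts of members higher in Alport mice were 35 to 38 under every alternative tried in males and in females. Counts with NR moved most. In Alport females 0 members were called, and 18 with DESeq2, 3 with limma-voom, 1 without the low-count filter, 7 in 1 fit of all 32 mice, 1 without the robust option (chosen after seeing the data) and 0 to 14 without 1 mouse in turn (14 without NR-treated replicate 1, 3 without NR-treated replicate 4). Leaving out 1 mouse gave 0 to 2 in Alport males (without NR-treated replicate 1), 0 to 9 in control males (NR-treated replicate 4), 0 to 1 in control females (vehicle-treated replicates 1 and 4), 0 to 22 in Alport mice of both sexes (22 without NR-treated male replicate 1, and 0 without most others), 0 to 12 and 0 to 2 for the NR-genotype interaction in males and females (NR-treated Alport replicate 1 of each sex), and 8 to 14 for female against male controls. DESeq2 called 8 members in control males, 2 in control females, 5 in Alport mice of both sexes and 1 in the male NR-genotype interaction. Without the low-count filter 1 was called in control males and 0 in Alport mice of both sexes. The fit of all 32 mice gave 6 in Alport mice of both sexes, 0 for the sex-genotype interaction and 3 for female against male controls. Among 63 results of single named members, most of them in the Alport comparisons and with only *Gbp3* for NR, 482 of 505 values under other settings and 509 of 544 without a mouse kept their direction and side of the threshold. The single reversal was *Gbp3* with NR in controls of both sexes, which was not called and ranged from −0.20 to 0.046 with 1 mouse left out, the latter without vehicle-treated female control replicate 1. The cause of these moves was not tested. In 28 pairs of same-numbered mice the correlation of deviations from group means was −0.17 to 0.27, with 5 pairs over 0.1. In the pairs of vehicle-treated Alport and control mice it was 0.0099 to 0.19. Each mouse of a comparison was also checked against the 4 mice of the other group, and the same mice recur between comparisons. In 18 of 56 such checks the best correlation was with the same number. Same-numbered mice were not treated as pairs. The paper states that treatment groups were balanced over litters, and the sample labels used here do not name litters. With the replicate number as a block, 2 members were called with NR in Alport females, 4 in Alport mice of both sexes and 1 in control males. Depth limits the interferon ligands, with at most 11 counts per library.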
